A study of Mus musculus with 12 samples.

Results

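The levels of 10 macrophage marker and innate sensor genes were examined in RNA of murine hip cartilage before and after mechanical injury. The genes were taken as 6 sensors and signalling genes (Tlr2, Tlr4, Cd14, Myd88, Irak3 and Clec4e) and 4 macrophage markers (Csf1r, Cd68, Mrc1 and Cd163). They were chosen by name, and all of their probes were used. In the normalized table they had 14 of 21004 probes, 9 for the sensor genes and 5 for the marker genes. Of these, 12 were found by their symbol there. The other 2 belong to Clec4e and are listed there under its older name Clecsf9. A further probe of Tlr4 (ILMN_2690004) and of Cd163 (ILMN_2627340) lay outside the normalized table and was not above background on any array, with intensities of 90.2 to 137.4 and 97.7 to 140.2.

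The series holds 12 samples on Illumina mouse BeadChips, 3 in each of 4 groups, which were the control and the injured hips of WT mice and the control and the injured hips of Mapk9 KO mice. All mice were C57BL6 mice of 4 to 6 weeks by the labels (5 to 6 weeks by the methods), and Mapk9 KO mice carry a knockout of Mapk9, which encodes the kinase JNK2. Injury was the avulsion of the femoral epiphysis of freshly culled mice, and 6 hips of 3 mice were pooled per replicate. Only the injured hips went into culture, for 4 h without serum, while the controls were frozen at once, so injury and culture cannot be told apart.

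Toll-like receptors recognize microbial products and fragments of damaged tissue, and most of them signal through the adaptor Myd88 and kinases of the Irak family to NF-kB. Cd14 hands lipopolysaccharide to Tlr4 and also serves Tlr2, Irak3 restrains the kinase complex, and Clec4e (Mincle) is a C-type lectin that recognizes mycobacterial glycolipid and a protein released by dead cells. Csf1r, Cd68, Mrc1 and Cd163 are used to recognize tissue macrophages, whose survival depends on signals through Csf1r. Osteoclasts also carry Csf1r and Cd68, and chondrocytes themselves carry Toll-like receptors.

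The sequence before the start site is shown for 2 sensors that rose and for 3 markers, as 250 bases from RefSeq (build GRCm38.p6), 5′ to 3′ on the strand of the gene. Capitals mark matches to the NF-kB consensus in Tlr2, to AP-1 (TGANTCA) in Cd68 and to PU.1 (GAGGAAG, here on the other strand) in Mrc1.
Tlr2, chr3:83841609-83841858, minus strand: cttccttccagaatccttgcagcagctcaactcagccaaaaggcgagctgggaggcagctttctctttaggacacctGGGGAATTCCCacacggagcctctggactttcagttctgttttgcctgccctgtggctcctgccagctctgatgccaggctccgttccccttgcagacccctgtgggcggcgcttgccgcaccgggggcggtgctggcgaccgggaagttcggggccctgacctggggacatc
Clec4e, chr6:123289872-123290121, minus strand: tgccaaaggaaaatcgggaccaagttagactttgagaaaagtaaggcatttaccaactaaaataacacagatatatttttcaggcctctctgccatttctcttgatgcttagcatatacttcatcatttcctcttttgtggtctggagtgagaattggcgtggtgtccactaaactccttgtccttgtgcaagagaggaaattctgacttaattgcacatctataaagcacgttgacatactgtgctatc
Cd68, chr11:69666171-69666420, minus strand: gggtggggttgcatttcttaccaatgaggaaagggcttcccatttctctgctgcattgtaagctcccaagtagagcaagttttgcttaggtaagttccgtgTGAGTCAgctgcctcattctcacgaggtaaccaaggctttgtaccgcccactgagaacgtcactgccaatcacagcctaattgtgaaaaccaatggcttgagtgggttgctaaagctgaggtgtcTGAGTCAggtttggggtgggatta
Mrc1, chr2:14229164-14229413, plus strand: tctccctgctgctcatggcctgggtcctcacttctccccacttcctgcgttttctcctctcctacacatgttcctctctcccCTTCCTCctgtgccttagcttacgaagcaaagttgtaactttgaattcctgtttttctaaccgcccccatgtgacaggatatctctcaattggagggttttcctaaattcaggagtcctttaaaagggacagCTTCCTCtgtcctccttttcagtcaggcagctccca
Cd163, chr6:124304401-124304650, plus strand: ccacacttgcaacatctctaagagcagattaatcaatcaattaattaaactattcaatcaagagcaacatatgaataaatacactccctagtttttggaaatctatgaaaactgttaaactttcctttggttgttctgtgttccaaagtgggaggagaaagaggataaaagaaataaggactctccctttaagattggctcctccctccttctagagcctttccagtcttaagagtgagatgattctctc

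All 3 motifs were searched on both strands and were chosen after the values had been seen. The Tlr2 stretch holds 2 overlapping NF-kB matches (bases -173 to -164 and -172 to -163), Cd68 holds AP-1 matches at -149 to -143 and -24 to -18, and Mrc1 holds PU.1 matches at -168 to -162 and -36 to -30. Among 32851 such windows of all genes, 7.25% held an NF-kB match, 6.75% an AP-1 match and 10.6% a PU.1 match. The windows of Clec4e, Cd163, Myd88 and both start sites of Irak3 held none of these letters. No window of Tlr4, Cd14 or Csf1r was searched. A match is a run of letters and says nothing of binding.

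Between 16930 and 18969 probes were above background (detection p-value under 0.05) on each array. A probe of Mapk9 (ILMN_2591066) lay between 10.05 and 10.90 on the WT arrays and between 8.69 and 9.28 on the Mapk9 KO arrays on the log2 scale, and in control hips it differed by -1.57 between Mapk9 KO and WT (limma, adjusted p = 0.0151). It was above background on all 6 Mapk9 KO arrays, and where it lies relative to the altered part of the gene was not examined. The other Mapk9 probe (ILMN_2716527) lay between 5.03 and 7.29 in WT and between 3.42 and 4.28 in Mapk9 KO and was above background on 4 of 6 WT arrays and 0 of 6 Mapk9 KO arrays. The tissue label was checked against chondrocyte markers, and all 8 measured ones, among them Acan, Col2a1 and Sox9, were above background on every array. Markers of skeletal muscle, neutrophils, erythroid cells and osteoclasts were also measured well above background in control hips, so the samples held RNA of other cells as well.

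Of the sensor genes, Cd14, Clec4e and Tlr2 rose in injured hips of both genotypes and Irak3 passed the threshold in WT, while Tlr4 and Myd88 did not pass it in either genotype. Of the marker genes, Csf1r, Mrc1 and Cd163 fell in both genotypes and Cd68 passed the threshold in Mapk9 KO. The threshold was a fold above 2, which is a difference of 1 on the log2 scale, and an adjusted p under 0.05 by limma. In WT, 5 of 9 sensor probes were higher and 4 of 5 marker probes were lower in injured hips, where 14.7% of all probes passed, 7.55% higher and 7.14% lower. In Mapk9 KO, 4 sensor probes were higher and 5 marker probes were lower, where 18.7% of all probes passed, 9.59% higher and 9.14% lower. No sensor probe was lower and no marker probe was higher past the threshold. The calls of Cd163 and of the Csf1r probe ILMN_1230485 rest on fitted values, because neither was above background in any injured sample. As bounds, Cd163 was at least 1.24-fold lower in WT and 1.25-fold in Mapk9 KO, and this Csf1r probe at least 1.77-fold and 1.91-fold. For these probes a fall past the fold limit was thus not measured. All 9 sensor probes had a difference above 0 and all 5 marker probes a difference below 0 in both genotypes.

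**Figure D1:**
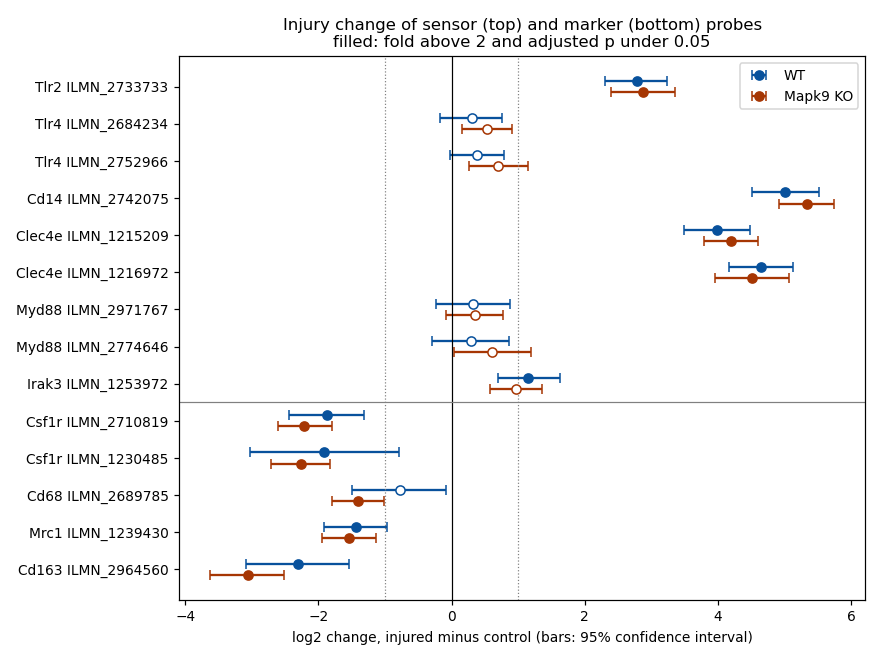
Difference between injured and control hips on the log2 scale (x axis) for each of the 14 probes (y axis), sensors above the grey line and markers below it, in WT (blue) and Mapk9 KO (red). Bars are 95% confidence intervals, dotted lines mark a fold of 2, and filled points passed the threshold. The sensor probes lie between 0.29 and 5.33, and the marker probes above background in both groups lie between -2.21 and -0.78. The points of Cd163 and Csf1r (ILMN_1230485), not above background in injured hips, and of Clec4e (ILMN_1216972), not above it in control hips, are fitted values of which the size is known only as a bound.

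Cd14, the co-receptor of Tlr4, had the largest difference in both genotypes among the member probes above background in injured and control hips. Its log2 values in WT were 8.22, 7.45 and 7.78 in control hips and 12.83, 12.86 and 12.80 in injured hips. In Mapk9 KO they were 7.63, 7.59 and 7.59 in control hips and 12.71, 13.24 and 12.85 in injured hips. All 6 injured samples lay more than 4 log2 units above all 6 controls. The rise was 5.01 (SE 0.23, limma adjusted p = 1.13e-06), a 32.3-fold change, in WT and 5.33 (SE 0.19, limma adjusted p = 6.22e-08), a 40.3-fold change, in Mapk9 KO. By size of the fitted difference Cd14 was number 15 from the top of 21004 probes in both comparisons. After quantile normalization without background correction the rise was 4.34 and 4.68.

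Tlr2, a receptor for bacterial lipopeptides, was read by a probe in the coding part of its transcript, shown here with the brighter Clec4e probe.
Tlr2 probe ILMN_2733733: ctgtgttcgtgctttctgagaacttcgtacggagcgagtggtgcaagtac
Clec4e probe ILMN_1215209: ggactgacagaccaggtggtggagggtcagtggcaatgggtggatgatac
Tlr2 had log2 values of 9.14, 8.71 and 8.87 in WT control, 11.79, 11.78 and 11.48 in WT injured, 8.83, 8.90 and 8.86 in Mapk9 KO control and 11.85, 12.08 and 11.27 in Mapk9 KO injured hips. Injured and control samples did not overlap in either genotype, and the lowest injured sample was replicate 3 in both. The rise was 2.78 (SE 0.21, limma adjusted p = 2.01e-05) or 6.86-fold in WT and 2.87 (SE 0.22, limma adjusted p = 3.37e-06) or 7.32-fold in Mapk9 KO.

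Tlr4, the receptor for lipopolysaccharide, moved far less. At the probe of higher mean (ILMN_2684234) the WT values were 8.0, 7.74 and 7.57 in control and 8.10, 7.87 and 8.23 in injured hips, and these groups overlapped. In Mapk9 KO they were 7.80, 7.75 and 7.58 in control and 8.17, 8.37 and 8.17 in injured hips, without overlap. The differences were 0.30 (SE 0.21, limma adjusted p = 0.335) in WT and 0.53 (SE 0.17, limma adjusted p = 0.0306) in Mapk9 KO. The other probe (ILMN_2752966) gave 0.38 (limma adjusted p = 0.166) and 0.70 (limma adjusted p = 0.0182). Both probes in Mapk9 KO thus had an adjusted p under 0.05 with folds of 1.44 and 1.62, under the fold limit.

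Clec4e had 2 probes that rose. At ILMN_1215209 the log2 values were 6.08, 6.09 and 5.87 in WT control (2 of 3 above background) and 10.37, 9.72 and 9.91 in WT injured hips. In Mapk9 KO they were 6.48, 6.21 and 6.40 in control and 10.63, 10.73 and 10.31 in injured hips. The lowest injured sample was over 3 log2 units above the highest control. The rise was 3.98 (SE 0.22, limma adjusted p = 2.89e-06) or 15.8-fold in WT and 4.19 (SE 0.18, limma adjusted p = 1.46e-07) or 18.3-fold in Mapk9 KO. The other probe (ILMN_1216972) was not above background in any control sample, so its rise is given as a bound: at least 9.17-fold in WT (limma adjusted p = 1.19e-06) and at least 10.3-fold in Mapk9 KO (limma adjusted p = 4.74e-07). After quantile normalization without background correction the rise at ILMN_1215209 was 2.66 in WT and 3.07 in Mapk9 KO, and the fitted difference at ILMN_1216972 was 2.29 and 2.46, so the bounds hold for the deposited values and not under that setting. For such a bound the dimmer group was raised, array by array, to at least the lowest value that any probe above background had there, and its mean was then compared with that of the brighter group.

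Myd88, the adaptor shared by most Toll-like receptors, stayed under the threshold at both probes. At ILMN_2971767 the values were 12.14, 11.71 and 11.34 in WT control and 12.32, 11.98 and 11.85 in WT injured hips. They were 11.73, 11.89 and 11.34 in Mapk9 KO control and 11.96, 12.15 and 11.90 in Mapk9 KO injured hips. The WT groups overlapped, and the Mapk9 KO groups were barely separated. The differences were 0.32 (95% interval -0.23 to 0.87) in WT and 0.35 (-0.08 to 0.77) in Mapk9 KO, with limma adjusted p of 0.389 and 0.189. The other probe (ILMN_2774646) gave 0.29 (limma adjusted p = 0.462) and 0.61 (limma adjusted p = 0.0885). With the replicate number as a block the last adjusted p was 0.011, with a fold of 1.53 that is under the limit.

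Irak3 (IRAK-M), an inhibitor of the receptor complex, was higher in injured hips. Its values were 8.92, 9.35 and 8.87 in WT control and 10.21, 10.32 and 10.07 in WT injured hips. They were 9.18, 9.11 and 9.16 in Mapk9 KO control and 9.97, 10.36 and 10.03 in Mapk9 KO injured hips. The groups did not overlap in either genotype. The rise was 1.15 (SE 0.21, limma adjusted p = 0.0032) or 2.23-fold in WT. In Mapk9 KO the difference was 0.97 (SE 0.18, limma adjusted p = 0.00141) or 1.96-fold, just under the fold limit. It passed without Mapk9 KO injured replicate 1 (1.04, limma adjusted p = 0.00328) or without injured replicate 3 (1.01, limma adjusted p = 0.00477). The WT difference was 0.95 after quantile normalization without background correction, under the limit.

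**Figure D2:**
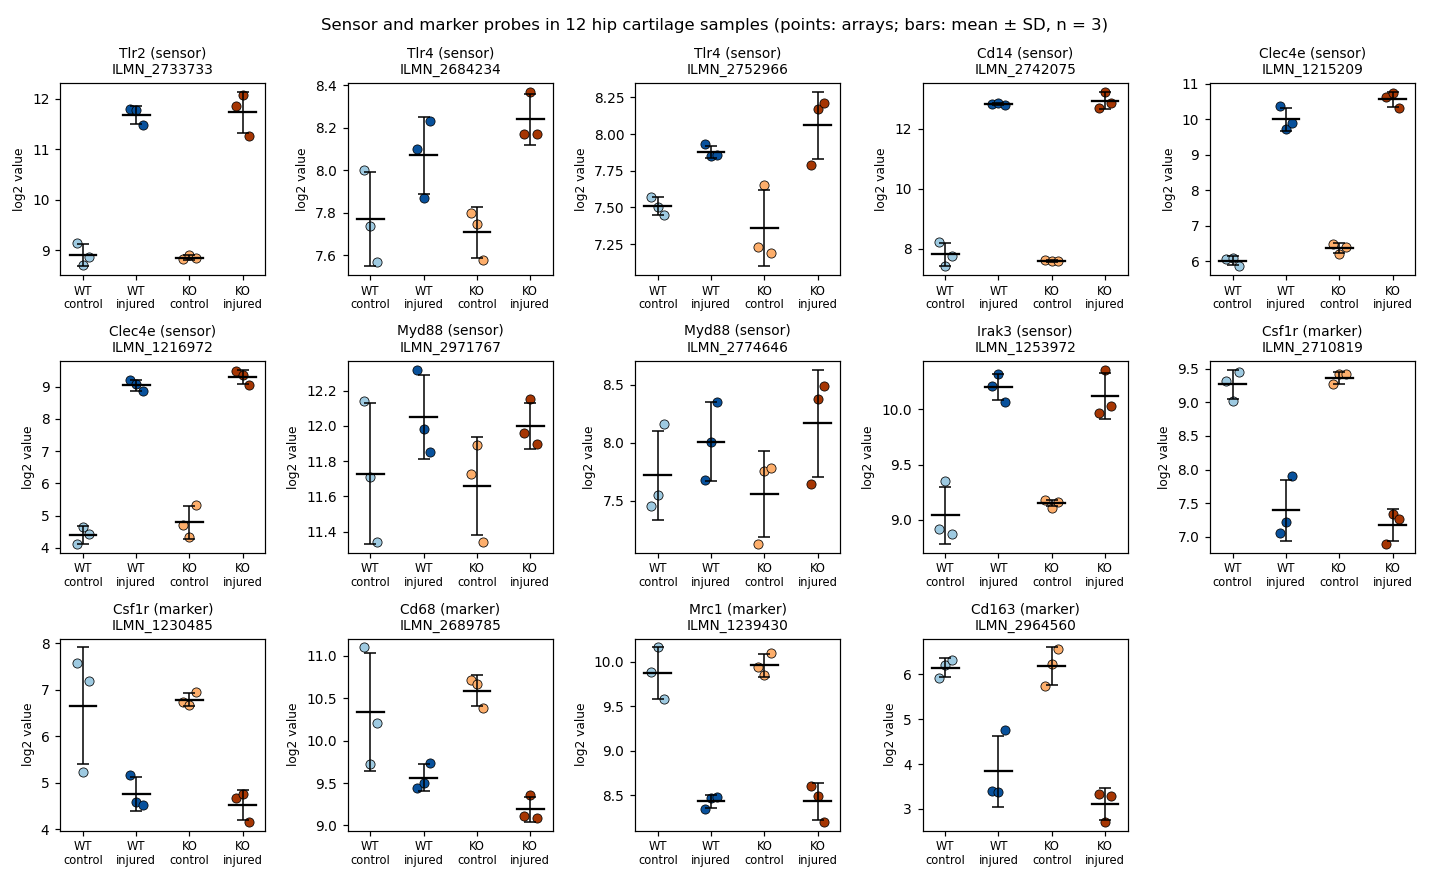
Log2 value (y axis) of each of the 14 probes on each array in the 4 groups (x axis), with the mean and SD of 3 arrays, each panel on its own scale. The injured points of Tlr2, Cd14, Irak3 and both Clec4e probes lie above all controls of their genotype, and those of Mrc1, Cd163 and both Csf1r probes lie below them.

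Csf1r, the receptor for Csf1 and Il34, fell in both genotypes. At ILMN_2710819 the log2 values were 9.32, 9.02 and 9.46 in WT control and 7.06, 7.22 and 7.90 in WT injured hips. They were 9.27, 9.42 and 9.43 in Mapk9 KO control and 6.89, 7.34 and 7.27 in Mapk9 KO injured hips. All injured samples lay more than 1 log2 unit below all controls. The fall was -1.87 (SE 0.26, limma adjusted p = 0.000648) in WT and -2.21 (SE 0.18, limma adjusted p = 6.4e-06) in Mapk9 KO, which is 3.67-fold and 4.62-fold lower. After quantile normalization without background correction the differences were -1.36 and -1.62.

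The other Csf1r probe (ILMN_1230485) was dimmer and not above background in any injured sample. Its WT control values were 7.58, 5.24 and 7.18, of which replicate 2 was not above background. It was at least 1.77-fold lower in WT (fitted difference -1.91, SE 0.51, limma adjusted p = 0.02) and at least 1.91-fold lower in Mapk9 KO (limma adjusted p = 1.12e-05). The calls used the fitted differences, which were -0.71 and -0.76 after quantile normalization without background correction, under the fold limit. The WT call was lost without WT control replicate 1 (limma adjusted p = 0.0796), control replicate 3 (0.0639), injured replicate 2 (0.0606) or injured replicate 3 (0.0605).

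Cd68, a lysosomal glycoprotein of macrophages and osteoclasts, had WT control values of 11.10, 9.72 and 10.21 and WT injured values of 9.44, 9.50 and 9.74. In Mapk9 KO it had 10.71, 10.67 and 10.39 in control and 9.11, 9.36 and 9.09 in injured hips. WT control replicate 2 lay within the range of the injured samples, while the Mapk9 KO groups were more than 1 log2 unit apart. The WT difference was -0.78 (SE 0.32, limma adjusted p = 0.101) and did not pass. Without WT control replicate 2 it was -1.09 and passed (limma adjusted p = 0.0144), and without WT control replicate 1 it was -0.40 (limma adjusted p = 0.298). In Mapk9 KO Cd68 fell by 1.40 on the log2 scale (SE 0.18, limma adjusted p = 0.000137).

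By replicate number, the differences of Cd68 in WT were -1.66, -0.21 and -0.47, and in Mapk9 KO they were -1.60, -1.31 and -1.30. The difference between both changes, Mapk9 KO minus WT, was -0.62 (SE 0.39, 95% interval -1.45 to 0.21, limma adjusted p = 0.63). A difference between the genotypes was thus not called for Cd68.

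Mrc1 (CD206), the mannose receptor, had WT values of 9.88, 10.16 and 9.58 in control and 8.35, 8.47 and 8.48 in injured hips. In Mapk9 KO they were 9.94, 9.85 and 10.10 in control and 8.60, 8.49 and 8.20 in injured hips. The injured means were 8.43 in both genotypes, 8.43 ± 0.07 and 8.43 ± 0.21 (SD, n = 3). Mrc1 fell by 1.44 on the log2 scale (SE 0.21, limma adjusted p = 0.000962) or 2.72-fold in WT and by 1.54 (SE 0.18, limma adjusted p = 7.9e-05) or 2.90-fold in Mapk9 KO.

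Cd163, the receptor for haemoglobin bound to haptoglobin, was dim throughout. Its values were 5.91, 6.20 and 6.33 in WT control, 3.40, 3.37 and 4.75 in WT injured, 5.74, 6.23 and 6.57 in Mapk9 KO control and 3.33, 2.71 and 3.30 in Mapk9 KO injured hips. It was above background in 3 WT controls, in 2 Mapk9 KO controls and in no injured sample. The groups did not overlap. It was at least 1.24-fold lower in WT (fitted difference -2.31, SE 0.35, limma adjusted p = 0.00111) and at least 1.25-fold lower in Mapk9 KO (fitted difference -3.06, SE 0.25, limma adjusted p = 5.77e-06). Quantile normalization without background correction gave -0.58 and -0.70, under the fold limit, and the methods' t-test lost the WT call (adjusted p = 0.0594). Lower values of these markers in a bulk sample may stand for fewer cells of a type or for less RNA per cell, and these cannot be told apart.

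Taking the brightest probe of each gene, the median injury difference of the 6 sensors was 1.97 in WT and 1.92 in Mapk9 KO, and that of the 4 markers was -1.66 and -1.87, or -1.11 and -1.47 with Cd163 at its bound. Over all probes the median was -0.02 in both comparisons. Groups did not overlap for 6 of 9 sensor probes and 4 of 5 marker probes in WT, where 20.3% of all probes were higher and 20.8% lower without overlap. In Mapk9 KO this held for 8 sensor probes and 5 marker probes, against 24.5% and 25.2%. With 3 arrays on each side an exact two-sided permutation test has a smallest p of 0.1, so it was not used for single probes.

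Neither group of genes differed between genotypes at the threshold. In control hips the differences, Mapk9 KO minus WT, lay between -0.21 (Cd14) and 0.35 (Clec4e, ILMN_1215209), leaving out the Clec4e probe ILMN_1216972, which was not above background in either group. Of the 14 probes 0 passed (0.119% of all probes) and 0 were at an unadjusted p under 0.05 by limma (6.46% of all). Only Clec4e (ILMN_1215209) was higher in every Mapk9 KO control than in any WT control, by 0.35, as were 4.26% of all probes. In injured hips Cd163 and the Csf1r probe ILMN_1230485 were not above background in either group, and the differences of the other probes lay between -0.37 (Cd68) and 0.56 (Clec4e, ILMN_1215209). Of the 14 probes 0 passed (0.181% of all probes) and 1 was at an unadjusted p under 0.05 (12.6% of all). That probe was the same Clec4e probe (SE 0.21, limma adjusted p = 0.325). These counts come from the fit without the replicate block. With the block the SE of this probe was 0.17 (limma adjusted p = 0.166) and that of Cd68 was 0.14 (limma adjusted p = 0.217). None of the 14 passed with the block, and the count at an unadjusted p was not made with it. The methods' t-test called 0 of all 21004 probes in both comparisons, so its 0 of the 14 adds nothing.

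In injured hips Cd68 was lower in every Mapk9 KO sample than in any WT sample, with a difference of -0.37 (limma adjusted p = 0.4). In this comparison 9.47% of all probes were lower without overlap. For the probes that were measured on both sides, the injury change in Mapk9 KO minus that in WT lay between -0.62 (Cd68) and 0.33 (Myd88, ILMN_2774646). The range leaves out Cd163 and the Csf1r probe ILMN_1230485, which were not above background in injured hips, and the Clec4e probe ILMN_1216972, which was not in control hips. The interaction was called for 0 of 14 probes (0% of all probes by adjusted p), and 0 were at an unadjusted p under 0.05 by limma (9.94% of all). The 95% intervals were -0.54 to 0.73 for Tlr2, -0.30 to 0.94 for Cd14, -1.01 to 0.35 for Csf1r (ILMN_2710819) and -0.65 to 0.47 for Mrc1. Intervals of this width leave room for differences of more than 1.5-fold in Tlr2, Cd14, Csf1r and Mrc1. They come from the fit without the replicate block. With the block the SE of these probes ran from 0.24 (Mrc1) to 0.28 (Cd14).

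The rest of the sensing pathway was described by lists of genes, each read at its probe of highest mean, where 7.51% of genes were higher and 7.16% lower in WT and 9.01% and 9.55% in Mapk9 KO. Of 4 other Toll-like receptors measured, 0 passed by limma in either genotype (2 and 3 at an unadjusted p under 0.05, 0 by the methods' t-test), with medians of 0.22 and 0.10. Tlr6, the partner of Tlr2, had 0.86 in WT (limma adjusted p = 0.0126) and 0.68 in Mapk9 KO, both under the fold limit. The remaining 6 listed receptors were not analysed here. Of 7 co-receptors and chaperones, 0 passed by limma (5 and 3 at an unadjusted p under 0.05, 0 by the methods' t-test), with medians of 0.22 and 0.26. Leaving out WT control replicate 3 or WT injured replicate 3, or Mapk9 KO control replicate 1 or 3 or injured replicate 2, let 1 of them pass as lower. Hsp90b1, a chaperone of the receptors, had 0.22 and 0.28.

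Of 18 adaptors and kinases, 1 rose in both genotypes and 17 did not pass, with medians of 0.00 and 0.14. This is no more than the share of all genes that were higher, 7.51% in WT and 9.01% in Mapk9 KO. The gene that rose was Ticam2, the adaptor that links Tlr4 to Ticam1, by 1.20 (SE 0.20, limma adjusted p = 0.0019) in WT and 1.02 (SE 0.21, limma adjusted p = 0.00313) in Mapk9 KO. Without WT control replicate 1 the WT count was 2, and after quantile normalization without background correction 0 passed in either genotype. Tab2 and Irf3, the brightest that did not pass, had 0.03 and 0.61 in WT and -0.17 and 0.56 in Mapk9 KO.

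Of 9 genes listed here as inhibitors of the pathway, 4 rose in each genotype and none fell, with medians of 0.55 and 0.84. Among all genes 7.51% were higher in WT and 9.01% in Mapk9 KO. Il1rl1, the receptor for Il33 that also dampens Toll-like receptor signalling, rose by 4.02 (SE 0.25, limma adjusted p = 6.87e-06) in WT and 3.88 (SE 0.20, limma adjusted p = 2.85e-07) in Mapk9 KO. Tnfaip3 (A20), a ubiquitin-editing enzyme that limits NF-kB, rose by 2.02 (limma adjusted p = 8.09e-05) and 2.05 (limma adjusted p = 9.4e-06). Cd300lf, an inhibitory receptor of myeloid cells, was not above background in control hips and rose at least 4.15-fold in WT and at least 7.18-fold in Mapk9 KO. The fourth was Dok3 in WT (1.09, against 0.84 in Mapk9 KO) and Peli1 in Mapk9 KO (1.07, against 0.19 in WT), 2 genes for which a difference between the genotypes was not called. Counting Peli1 as an inhibitor is uncertain, and without it the Mapk9 KO count holds Il1rl1, Tnfaip3 and Cd300lf. Tollip, the brightest that did not pass, had -0.22 and -0.06.

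Of 8 other genes of C-type lectin sensing, 2 rose in WT and 4 in Mapk9 KO, and none fell. Among all genes 7.51% were higher in WT and 9.01% in Mapk9 KO. Clec4d, a lectin that pairs with Clec4e, rose by 3.64 (SE 0.21, limma adjusted p = 3.52e-06) in WT and 3.20 (SE 0.26, limma adjusted p = 5.12e-06) in Mapk9 KO. Fcer1g, the signalling chain of both lectins, rose by 1.14 in WT (limma adjusted p = 0.006) and had 0.68 in Mapk9 KO. Clec5a (at least 1.85-fold), Bcl10 (1.14) and Clec7a (1.04) passed in Mapk9 KO and not in WT, where Bcl10 had 0.66 and Clec7a 0.48. Clec5a was not above background in any control sample, and in WT it was above background in 2 of 3 injured samples (limma adjusted p = 0.117). A difference between the genotypes was not called for Clec5a (limma adjusted p = 0.466), Bcl10 (interaction 0.48, limma adjusted p = 0.506) or Clec7a (0.55, limma adjusted p = 0.679). Fcer1g had an interaction of -0.47 (limma adjusted p = 0.666). The WT count was 1 without WT control replicate 3, by the methods' t-test and under both quantile normalizations, and the Mapk9 KO count was 2 after quantile normalization without background correction. Clec4n, another lectin of the group, had -0.73 and -0.80 and did not pass.

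**Figure D3:**
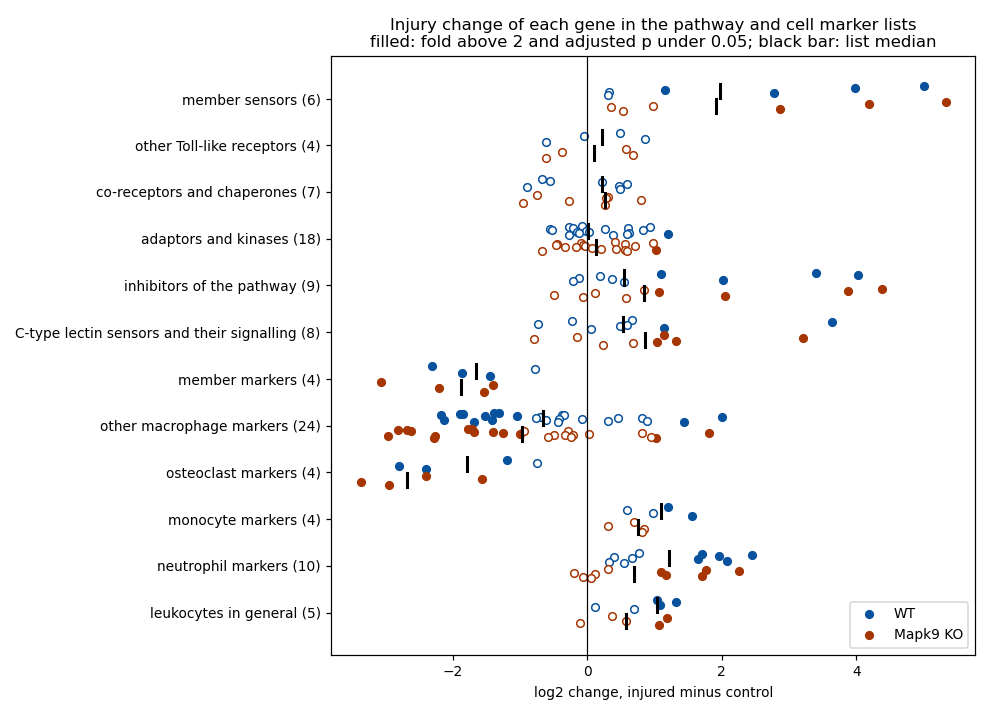
Difference between injured and control hips on the log2 scale (x axis) of each gene (points) in 12 lists (y axis, number of genes in brackets), in WT (blue) and Mapk9 KO (red). Filled points passed the threshold and black bars are list medians, which are 1.97 and 1.92 for the 6 sensors and -1.66 and -1.87 for the 4 markers. With Cd163 at its bound the marker medians are -1.11 in WT and -1.47 in Mapk9 KO. Points of genes not above background in injured or in control hips, such as Cd163, Siglec1, Dcstamp and Cd300lf, are fitted values.

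The fall of the markers was set beside 24 other macrophage genes. Among all genes 7.51% were higher and 7.16% lower in WT and 9.01% and 9.55% in Mapk9 KO. The counts here are of the 24 genes. Of these, 10 fell and 2 rose in WT (median -0.66), and 12 fell and 2 rose in Mapk9 KO (median -0.97). C1qa, C1qb and C1qc, the chains of complement C1q, fell, with log2 differences of -1.85, -1.90 and -2.18 in WT and -2.81, -2.68 and -2.62 in Mapk9 KO and a limma adjusted p of at most 0.00119. Siglec1, a sialic acid receptor, passed as lower in both genotypes but was above background on 1 WT control array, so no fold is given for WT, and in Mapk9 KO it was at least 1.19-fold lower. The genes counted as lower include Fcgr1, which was above background on 0 of 6 WT arrays and 1 of 6 Mapk9 KO arrays, and in Mapk9 KO also Lyve1, above background on 1 of 6. The 2 genes that rose were Fcgr3, an activating Fc receptor (2.00 and 1.81), and Tyrobp, a signalling adaptor (1.43 and 1.02). Lyz2 and Stab1, the brightest that did not pass, had 0.46 and 0.30 in WT and 0.02 and -0.25 in Mapk9 KO. With the methods' t-test, 4 fell and 2 rose in WT, and after quantile normalization without background correction 3 fell and 2 rose. In Mapk9 KO the latter gave 5 that fell and 1 that rose.

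Genes of other cells moved as well, beside 7.51% of all genes higher and 7.16% lower in WT and 9.01% and 9.55% in Mapk9 KO. Of 4 osteoclast markers, 3 fell in WT and 4 in Mapk9 KO (medians -1.80 and -2.68). Oscar, an osteoclast receptor, fell (-2.40 and -2.95), and Dcstamp, needed for osteoclast fusion, was at least 2.87-fold and at least 2.93-fold lower. Of 10 neutrophil markers, 5 rose in both genotypes (medians 1.21 and 0.70), with Cxcr2, a chemokine receptor, up by 2.45 and 2.25. Of 4 monocyte markers, 2 rose in WT and 0 in Mapk9 KO by limma (3 there at an unadjusted p under 0.05, 0 by the methods' t-test). The WT count was 0 by the methods' t-test and 1 after quantile normalization without background correction. Of 5 genes of leukocytes in general, 3 rose in WT and 2 in Mapk9 KO, with Cd53 up by 1.32 and 1.19. The WT count was 1 without WT control replicate 3 or after normexp with quantile normalization, and 0 after quantile normalization without background correction or by the methods' t-test. The Mapk9 KO count was 1 without control replicate 1 or 2 or injured replicate 1 or 2 or by the methods' t-test, and 0 after quantile normalization without background correction. Ptprc, the general marker of leukocytes, was not analysed here.

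Of 10 skeletal muscle markers, 9 fell in WT and 10 in Mapk9 KO (medians -2.73 and -3.89), where 7.16% and 9.55% of all genes were lower. Without WT control replicate 1 the WT count was 5, and with the replicate block it was 8. The methods' t-test gave 0 in WT and 8 in Mapk9 KO. Among all genes 7.51% were higher in WT and 9.01% in Mapk9 KO. Of 8 chondrocyte markers, 6 rose in WT and 5 in Mapk9 KO (medians 1.22 and 1.73), and the WT count was 3 by the methods' t-test or after quantile normalization without background correction. Of 3 growth factors that act on macrophages, Csf2 was at least 1.28-fold higher and Il34 at least 1.23-fold lower in WT, and 0 passed in Mapk9 KO by limma (2 at an unadjusted p under 0.05, 0 by the methods' t-test). In WT too 0 passed by the methods' t-test, after quantile normalization without background correction or among probes detected on at least 3 arrays. In injured hips Csf2 was above background in 2 of 3 WT and 0 of 3 Mapk9 KO samples, and the genotype comparison passed with the replicate block and not without it (limma adjusted p = 0.139), so no fold is given. The part of these cell type markers in the changes of the sensors and macrophage markers was not tested.

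As a mean over each list, the 4 macrophage markers lay between 8.78 and 9.05 in WT control, 7.06 and 7.72 in WT injured, 8.91 and 9.12 in Mapk9 KO control and 6.96 and 6.98 in Mapk9 KO injured hips. The 24 other macrophage genes ran from 7.89 to 8.17, 7.21 to 7.58, 8.15 to 8.24 and 7.09 to 7.39 in the same order. The osteoclast list ran from 9.67 to 9.95, 7.58 to 8.56, 9.79 to 10.03 and 6.83 to 7.73. All 3 lists were lower in every injured sample than in any control. Their means include genes that were not above background in injured hips, among them Cd163, Siglec1, Fcgr1, Vsig4 and Dcstamp. The size of these drops is therefore uncertain. The neutrophil list went the other way, from 11.54 to 12.17, 12.91 to 13.12, 11.96 to 12.19 and 12.71 to 13.15. The muscle list varied among WT controls, from 11.14 to 12.64, against 12.77 to 13.11 in Mapk9 KO control, and lay between 8.22 and 10.39 in WT injured and between 8.76 and 10.01 in Mapk9 KO injured hips.

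**Figure D4:**
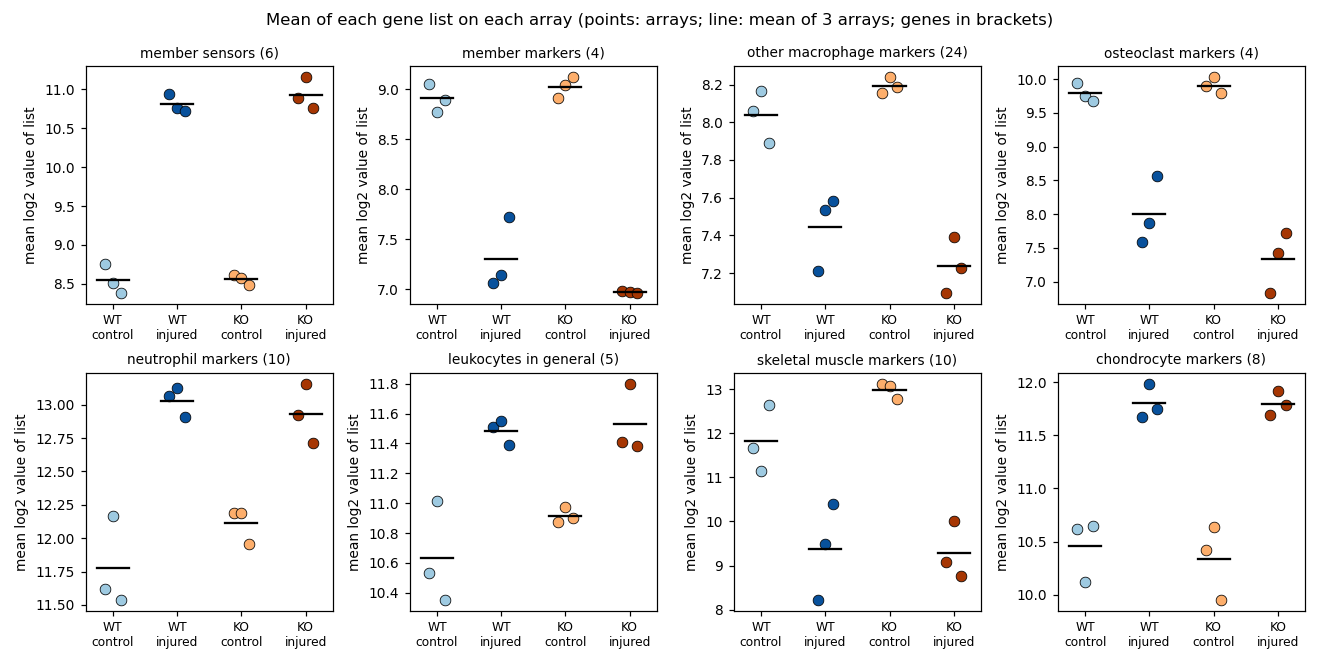
Mean log2 value of 8 gene lists (y axis, own scale per panel, number of genes in brackets) on each array in the 4 groups (x axis), with a line at the mean of 3 arrays. The marker, other macrophage, osteoclast and muscle lists are lower in all injured samples than in all controls, and the sensor, neutrophil, leukocyte and chondrocyte lists are higher. The means include values of genes that were not above background.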

How the data were processed

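RNA of 12 samples was hybridized to Illumina mouse BeadChips. The authors deposited intensities of 45281 probes, each with a detection p-value, and log2 values of 21004 probes, which they had background-corrected with negative control probes and normalized with vsn. The version of vsn is not given in the sources used here. Groups and replicate numbers came from the sample titles. The deposited log2 values were fitted with limma 3.58.1 (lmFit, eBayes) in R 4.3.3, with only the 6 arrays of a comparison, or all 12 for the interaction, and Benjamini-Hochberg adjustment over all 21004 probes. The threshold was a fold above 2 and an adjusted p under 0.05, and for the interaction the adjusted p alone. Figures were drawn with matplotlib 3.10.9. The script was tested on simulated data. The number of arrays limits the precision.

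The members and lists were chosen with earlier results of these data known. Of each list, up to 4 genes with the largest change among those called in WT or Mapk9 KO and up to 2 of the brightest genes called in neither could be named. The motifs, and the further genes named beyond this rule (Peli1, Clec7a, Fcgr3, Tyrobp, Fcgr1 and Lyve1), were chosen after the values were seen. The lists not described in the report gave these counts, beside 7.51% of all genes higher and 7.16% lower in WT and 9.01% and 9.55% in Mapk9 KO. In a list of 7 or 8 genes a count of 1 is near these shares. Of 7 erythroid markers 2 fell in WT and 2 in Mapk9 KO, of 8 lymphocyte markers 1 rose in WT and 1 rose and 1 fell in Mapk9 KO, of 7 endothelial markers 1 rose in WT and 0 in Mapk9 KO (limma; 2 at an unadjusted p under 0.05, 0 by the methods' t-test), of 5 adipocyte markers 2 fell in WT and 4 in Mapk9 KO, and of 3 synovium and tendon markers 1 fell in each. Without WT control replicate 2 the WT counts were 3 for lymphocytes, 0 for endothelium and 2 for synovium and tendon, without WT injured replicate 3 that for lymphocytes was 2, and without WT injured replicate 1 that for adipocytes was 1.

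Groups share replicate numbers. Residuals around the group means had correlations of 0.153 to 0.390 in the 18 sample pairs of equal number (median 0.249) and of -0.289 to 0.0825 in the 36 remaining pairs, so the numbers were taken to pair the samples, and the replicate number entered as a block in an alternative. Further alternatives were neqc (normexp, quantile, offset 16), quantile normalization alone, subtracted array medians, probes detected on at least 3 arrays, the probe of highest mean per symbol, all 12 arrays in the fit, the methods' t-test with adjustment, no limit on fold, and each array left out in turn.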

Additional observations from a re-analysis of the deposited data

How the results depend on the processing

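The number of member probes called stayed within 1.5 times of 9 under all alternatives, from 6 to 10 in WT and from 7 to 12 in Mapk9 KO, and with each array left out in turn it ran from 8 to 10 and from 9 to 10. For the genotype comparisons and the interaction it stayed at 0. No called value changed its sign. With the replicate number as a block the paired counts were 9 in WT, 9 in Mapk9 KO and 0 in the genotype comparisons and the interaction, and the block changed no call of a member. Over all probes the block moved the calls for genotype in injured hips from 38 to 188 and for the interaction from 0 to 112, and without WT control replicate 3 they were 412 for genotype in control hips and 242 for the interaction. Quantile normalization without background correction lowered the calls in WT from 3086 to 1141 probes and in Mapk9 KO from 3934 to 1771, and with it Irak3 in WT, Csf1r (ILMN_1230485) and Cd163 in both genotypes lost their calls. With the methods' t-test Csf1r (ILMN_1230485, adjusted p = 0.184) and Cd163 (adjusted p = 0.0594) lost theirs in WT. Without the fold limit both Tlr4 probes and Irak3 passed in Mapk9 KO. Dim probes limit what can be said of Cd163, of this Csf1r probe and of Clec4e in control hips.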
